A study of Homo sapiens with 2 samples.

Results

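The 8 genes described here, TCP1, CCT2, CCT3, CCT4, CCT5, CCT6A, CCT7 and CCT8, encode the subunits of the cytosolic chaperonin CCT, also called TRiC. They were taken by gene name from a table of transcript models read by nanopore sequencing, and they are 8 of 16645 annotated genes and 687 of 237608 transcript models in that table. RNA came from GM12878, an established human line of B lymphoblasts that Epstein-Barr virus keeps dividing, without a treatment, and both libraries form 1 group (replicates 1 and 2, n = 2). Native RNA strands were read directly, from the 3′ end, so 1 read stands for 1 strand. The labels do not say whether the replicates came from separate cultures, so a difference between these libraries may be technical. Unless stated otherwise, p-values here take in counting error only, not the spread between libraries, and they describe no condition.

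CCT folds newly made proteins in the cytosol. Its subunits are related to each other, each takes its own place in a ring, and a pair of rings stacked back to back encloses the folding protein and uses ATP. TCP1 is the alpha subunit, CCT2 beta, CCT3 gamma, CCT4 delta, CCT5 epsilon, CCT6A zeta, CCT7 eta and CCT8 theta. Actins and tubulins are its best known clients. Prefoldin hands unfolded actin and tubulin to CCT, phosducin-like proteins bind it as cochaperones, and tubulin cofactors act on tubulin after it leaves the ring. Because a ring needs each subunit, the balance of the 8 mRNAs is of interest, and because their mRNAs have many exons, a read must run far from the 3′ end before it shows the whole splicing pattern.

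The total was 1360368 reads for replicate 1 and 1510998 for replicate 2. Levels are given as CPM, reads per 1000000 reads of the library, and a single read came to 0.735 and 0.662 CPM. The B cell identity given by the labels was checked on 7 marker genes, which all had reads in both libraries, with 9089 and 9443 CPM in sum. Of 5 genes of other lineages, ALB, HBG1 and LYZ were at 0 reads in both, which allows up to 2.21 and 1.99 CPM. COL1A1 had 2 and 3 reads, and CD3E had 5 and 16. Intervals below are 95% Wilson intervals unless another kind is named, and they and this limit cover counting error only.

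All 8 subunit genes were well read in both libraries, and the highest was 2.11-fold above the lowest in replicate 1 and 2.13-fold in replicate 2. Together they had 4095 reads in replicate 1 and 3755 in replicate 2, which was 0.301% and 0.249% of the library, or 2748 CPM ± 371 (SD, n = 2). CCT7 (chromosome 2, 73233420 to 73253021, plus strand, GRCh38) had 668 and 584 reads, 491 and 387 CPM, and the highest mean level with 439 CPM ± 73.9 (SD, n = 2). CCT3 (chromosome 1, 156308968 to 156367873, minus strand) had 626 and 521 reads, 402 CPM ± 81.6. CCT5 (chromosome 5, 10249921 to 10266412, plus strand) had 583 and 531 reads, 390 CPM ± 54.5. These 3 genes led the complex in replicate 1, and their means differed by less than the spread between the libraries.

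CCT4 (chromosome 2, 61868089 to 61888804, minus strand) had 549 and 528 reads, 377 CPM ± 38.3 (SD, n = 2). CCT8 (chromosome 21, 29055805 to 29073797, minus strand) had 489 and 591 reads, 375 CPM ± 22.4. CCT4 and CCT8 therefore had almost the same mean level, and CCT8 was the only subunit with a higher CPM in replicate 2. TCP1 (chromosome 6, 159778498 to 159789749, minus strand) had 461 and 375 reads, 294 CPM ± 64.1. CCT6A (chromosome 7, 56051630 to 56063989, plus strand) had 402 and 347 reads, 263 CPM ± 46.6. CCT2 (chromosome 12, 69585334 to 69601570, plus strand) had 317 and 278 reads, 209 CPM ± 34.7. TCP1, CCT6A and CCT2 were the 3 lowest in both libraries, in the same order, while the order of the upper 5 differed between them. The intervals of CCT2 and CCT6A did not overlap in replicate 1 (209 to 260 against 268 to 326 CPM) and touched in replicate 2 (164 to 206.9 against 206.7 to 255 CPM).

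**Figure D1:**
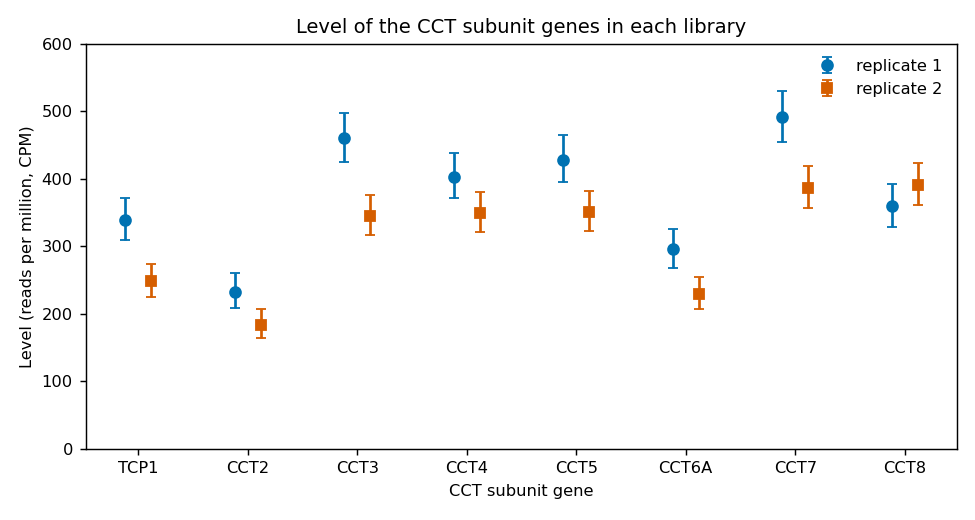
Level of each CCT subunit gene in CPM (vertical axis, from 0) in replicate 1 (circles) and replicate 2 (squares), with 95% Wilson intervals of the read count. 7 genes lie lower in replicate 2 and CCT8 lies higher, at 359 and 391 CPM.

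As parts of the summed CCT reads, the subunits ranged from 7.74% (6.96 to 8.60%) for CCT2 to 16.3% (15.2 to 17.5%) for CCT7 in replicate 1. In replicate 2 they ranged from 7.40% (6.61 to 8.29%) for CCT2 to 15.7% (14.6 to 16.9%) for CCT8. CCT5 held 14.2% and 14.1%, the steadiest part. CCT8 moved most, from 11.9% (10.98 to 13.0%) to 15.7%, and its intervals did not overlap. No other subunit had intervals that lay apart. Since a direct RNA read counts a strand whatever its length, reads were not divided by length. On the scale of CPM per kilobase of the reference transcript (defined below), CCT7 was again highest with 229 and CCT6A lowest with 96.6, and CCT8 (187) stood beside CCT3 (187), with CCT2 at 102. This scale was chosen after seeing the data. Per kilobase of the known model with most reads, which is short for CCT8, CCT8 was highest with 22.5% of the sum and CCT7 had 18.0%. The SD of log2 CPM among the 8 subunits was 0.36 in replicate 1 and 0.40 in replicate 2. Over the 14 core proteasome genes, which also encode subunits of 1 complex, it was 0.51 and 0.45, and over the 6 prefoldin genes 1.04 and 1.17. These spreads were not tested against each other.

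Between the libraries, 5 of the 8 subunit genes passed an adjusted p of 0.05, and all 5 were lower in replicate 2. Over all 10634 genes with at least 10 reads, 5.05% passed, 2.33% as lower and 2.72% as higher. Deeply read genes pass more often: of the 785 other genes with at least 500 reads, 14.9% passed as lower. Of the 70 other genes with at least 500 reads and the same range of transcript length and exon number as the CCT genes, 11.4% did. TCP1 had 339 CPM in replicate 1 and 248 in replicate 2, a log2 ratio of -0.45 (exact 95% interval -0.65 to -0.25, exact binomial test, adjusted p 0.000485, Benjamini-Hochberg). CCT3 had 460 and 345 CPM, a log2 ratio of -0.42 (-0.59 to -0.25, exact binomial test, adjusted p 8.9e-05). CCT6A had a log2 ratio of -0.36 (-0.58 to -0.15), CCT7 of -0.35 (-0.51 to -0.18) and CCT5 of -0.29 (-0.46 to -0.11), all past the threshold. Without genomic models CCT6A did not pass (log2 ratio -0.33).

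CCT2 had 233 and 184 CPM, a log2 ratio of -0.34 (exact interval -0.58 to -0.10), and missed the threshold (by exact binomial test, adjusted p 0.0677). CCT4 had 404 and 349 CPM, a log2 ratio of -0.21 (-0.38 to -0.03, exact binomial test, adjusted p 0.183). CCT8 had 359 and 391 CPM, a log2 ratio of 0.12 (-0.05 to 0.30, exact binomial test, adjusted p 0.565). The interval of CCT8 lay above those of the other subunits except that of CCT4, with which it overlapped. The median log2 ratio of the 8 genes was -0.34, against 0.01 over all genes tested. The binomial test knows only counting error. When the spread between libraries was estimated over all genes (edgeR, common biological coefficient of variation 0.146, chosen after seeing the data), 0 of the 8 genes passed and 0 had an unadjusted p under 0.05 (lowest 0.148, edgeR's exact test), and 21 of all 10634 genes passed. That spread came from the same 2 libraries that were compared, so their difference counts as error. The low number of calls follows in part from this and decides nothing about the 8 genes.

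**Figure D2:**
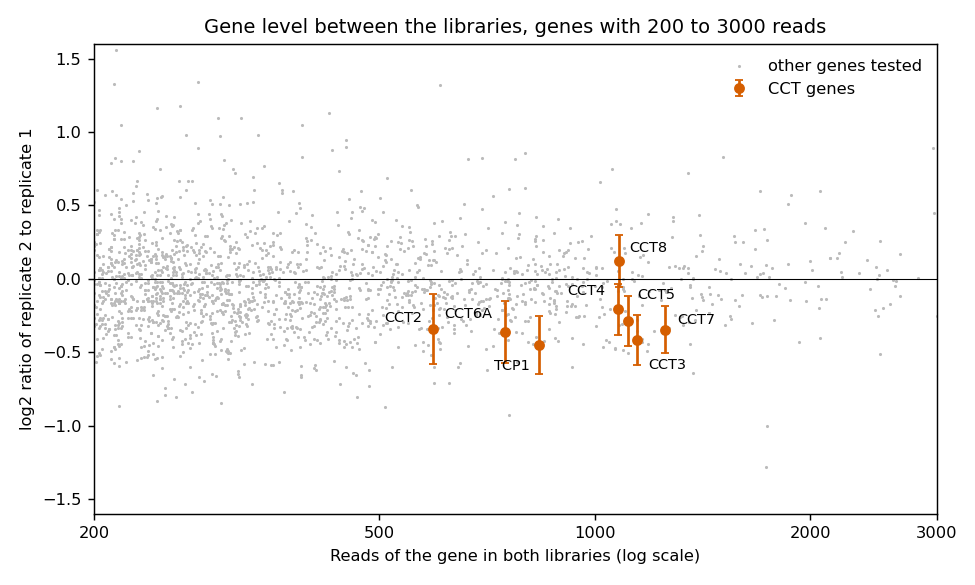
Log2 ratio of replicate 2 to replicate 1 (vertical axis) against the reads of a gene in both libraries (horizontal axis, log scale) for the CCT genes, with exact 95% intervals, and for other genes (grey) with 200 to 3000 reads. Grey points beyond 1.6 on either side, 10 genes, lie outside the axis. The CCT genes except CCT8 lie below 0.

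The table sorts each transcript model into a category. Known models carry the splice junctions of an annotated transcript. Incomplete splice matches (ISM) carry an unbroken run of them, and a suffix ISM is one that keeps the 3′ end. NIC models join annotated splice sites in a new way, NNC models use at least 1 splice site that is not annotated, and genomic models overlap the gene without its splicing. Of the summed CCT reads, known models held 42.7% (41.2 to 44.2%) in replicate 1 and 21.8% (20.5 to 23.1%) in replicate 2. ISM models held 38.1% (36.6 to 39.6%) and 63.1% (61.5 to 64.6%). NNC models held 11.1% and 5.91%, NIC models 4.62% and 3.33%, and genomic models 3.54% and 5.89%. Over the reads of all annotated genes the known share was 56.5% and 46.4% and the ISM share 24.0% and 32.3%. These values over all genes were not matched for transcript length or exon number. The difference between the libraries, -20.9 percentage points for known and 24.99 for ISM reads of the CCT genes, was -10.1 and 8.22 over all genes.

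**Figure D3:**
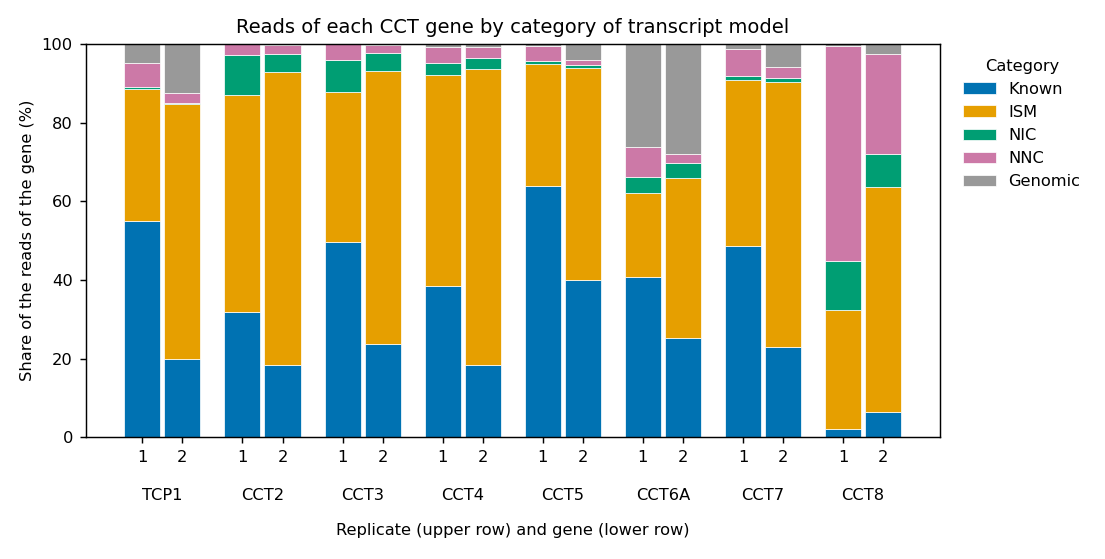
Share of the reads of each CCT gene (vertical axis, percent) in known, ISM, NIC, NNC and genomic models, with 1 bar per replicate. The known share (blue) is smaller in replicate 2 except in CCT8, CCT8 is led by NNC models in replicate 1, and CCT6A has the widest genomic part.

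The known share was lower in replicate 2 in 7 of the 8 genes and higher in CCT8, all past an adjusted p of 0.05 (Fisher's exact test per gene). Of the 6340 genes with at least 20 reads in each library, 26.9% passed as lower and 0.268% as higher. More deeply read genes passed more often: of 3555 with at least 50 reads in each library, 1603 passed as lower and 18 as higher. TCP1 showed the largest difference, with 254 of 461 reads (55.1%, 50.5 to 59.6%) in known models in replicate 1 and 75 of 375 (20%, 16.3 to 24.3%) in replicate 2 (by Fisher's exact test, adjusted p 7.58e-24). CCT5 had the highest known share in both libraries, 64.0% (60.0 to 67.8%) and 39.9% (35.8 to 44.1%). CCT3 had 49.7% and 23.6%, CCT7 48.5% and 22.9%, CCT6A 40.8% and 25.4%, and CCT4 38.4% and 18.4%. CCT2, whose reference transcript has the most exons of the 8 (16), had 31.9% (27.0 to 37.2%) and 18.3% (14.2 to 23.3%), the smallest difference among the 7 (by Fisher's exact test, adjusted p 0.00138). CCT5, with 11, has the fewest exons. Over the 698 other tested genes whose reference transcripts have 11 to 16 exons and 1916 to 3675 bases, as those of the CCT genes do, the median known share was 27.6% and 12.5%, and 31.4% of them passed as lower. These 698 genes were not matched to the read depth of the CCT genes.

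The ISM share was higher in replicate 2 in all 8 genes past the same threshold (Fisher's exact test), where 22.2% of all tested genes passed as higher and 0.647% as lower. Of 3555 genes with at least 50 reads in each library, 1316 passed as higher and 35 as lower. In CCT3 it went from 38.0% (34.3 to 41.9%) to 69.5% (65.4 to 73.3%). In TCP1 it went from 33.4% to 64.8%, and in CCT8 from 30.3% to 57.2%. CCT4 and CCT2 had the highest ISM shares in both libraries, 53.7% and 75.2% for CCT4 and 55.2% and 74.5% for CCT2. CCT6A had the lowest, 21.4% (17.7 to 25.7%) and 40.6% (35.6 to 45.9%). The intervals of the 2 libraries did not overlap in any of the 8 genes. Of the 698 genes of like length and exon number, 27.8% passed as higher.

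Within the known reads, 1 transcript of each gene held most, except in CCT8 with a single known model. For 7 genes it was the annotated protein-coding transcript with the longest coding sequence, called the reference transcript here. TCP1-201 (12 exons) had 252 and 74 reads, CCT2-201 (16 exons) 96 and 35, and CCT3-201 (14 exons) 308 and 121. CCT4-201 (14 exons) had 203 and 85 reads and CCT5-201 (11 exons) 347 and 163. CCT6A-201 (14 exons) had 154 and 67 reads and CCT7-201 (12 exons) 319 and 128. In all 7 the reference transcript had fewer reads in replicate 2, although that library was the larger.

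In 3 of these 7 genes, the reference transcript also passed as a smaller part of the known reads in replicate 2 (Fisher's exact test). Over the 1878 genes tested in this way, 12.5% passed, 11% as lower and 1.44% as higher. Of 1073 genes with at least 50 known reads in each library, 183 passed as lower and 21 as higher. CCT2-201 held 95.05% of the known reads in replicate 1 and 68.6% in replicate 2 (by Fisher's exact test, adjusted p 0.000405). CCT5-201 held 93.0% and 76.9% (by Fisher's exact test, adjusted p 1.9e-06), and CCT6A-201 held 93.9% and 76.1% (by Fisher's exact test, adjusted p 0.00134). CCT4-201 held 96.2% and 87.6% and missed the threshold (by Fisher's exact test, adjusted p 0.0756). TCP1-201, CCT3-201 and CCT7-201 held at least 95.5% in both libraries.

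Part of the other known reads lay in short annotated transcripts whose junctions are the last ones of the reference transcript, so a read that shows only those junctions matches them as known. There were 5 such models in 4 genes, all annotated as retained introns, with 47 reads in replicate 1 and 116 in replicate 2, or 2.69% and 14.2% of the known CCT reads. CCT5-210 (3 exons) had 23 and 44 reads, CCT2-211 (2 exons) 5 and 15, CCT6A-209 (3 exons) 6 and 13, and CCT6A-204 (2 exons) 3 and 6. CCT8-210 (5 exons) had 10 and 38. Each of the 5 had more reads in replicate 2. The 7 known models that carry only first junctions of a reference transcript had 5 and 6 reads in all, and the remaining 12 had 17 and 23.

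CCT8 stood apart from the other subunits in its categories. CCT8-210 was its only known model, and the other 11 of its 12 annotated transcripts, CCT8-201 among them, had no row in the table used here. Known models therefore held 2.04% (1.11 to 3.72%) of its reads in replicate 1 and 6.43% (4.72 to 8.70%) in replicate 2 (by Fisher's exact test, adjusted p 0.00363). A mean known share this low was not rare, since 16.4% of the 6340 genes tested lay at or below it. NNC models held 267 of 489 reads (54.6%, 50.2 to 59.0%) and 150 of 591 (25.4%, 22.0 to 29.04%). Of the 6340 genes with at least 20 reads in each library, 27 (0.426%) had a mean NNC share as high as that of CCT8, and the median was 4.19%. In the other 7 subunits the NNC share was at most 7.71%.

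The NNC reads of CCT8 lay almost wholly in 2 models. ENCODEHT000227561 has 15 exons and 1829 bases, and it had 169 reads (34.6%, 30.5 to 38.9% of the gene) in replicate 1 and 92 (15.6%, 12.9 to 18.7%) in replicate 2. ENCODEHT000227595 has 15 exons and 1822 bases, 7 fewer, and it had 78 and 45 reads. Together they held 247 and 137 reads, 92.5% and 91.3% of the NNC reads of the gene. The first of them held 68.4% (62.4 to 73.9%) of the pair in replicate 1 and 67.2% (58.9 to 74.5%) in replicate 2, so their proportion was within counting error of equal. CCT8-201 also has 15 exons, with 2005 bases. The table gives no coordinates of models, so which splice site of these 2 is not annotated was not determined here.

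To compare CCT8 with the other subunits without the label known, reads were also counted in models of any category with at least as many exons as the reference transcript. This measure was chosen after seeing the data. It was lower in replicate 2 in all 8 genes past the threshold (Fisher's exact test), where 35% of 5978 genes passed as lower and 0.0167% as higher. These rates were not matched to the read depth of the CCT genes. CCT8 had 316 such reads (64.6%, 60.3 to 68.7%) in replicate 1 and 186 (31.5%, 27.9 to 35.3%) in replicate 2, the highest of the 8 in replicate 1 and beside CCT5 (62.4% and 31.8%) in replicate 2. These reads were 260 and 142 in NNC models and 56 and 44 in NIC models. TCP1 had 61.0% and 20.8%, CCT3 58.9% and 28.4%, and CCT7 54.3% and 25.3%. CCT6A had 49.5% and 23.1%, CCT4 42.3% and 20.1%, and CCT2 41.0% and 17.3%. Over the 8 genes together the share was 55.04% (53.5 to 56.6%) and 25.6% (24.3 to 27.1%), and over the 698 genes of like length and exon number the median was 25.3% and 9.70%, with 41.5% of them passing as lower.

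**Figure D4:**
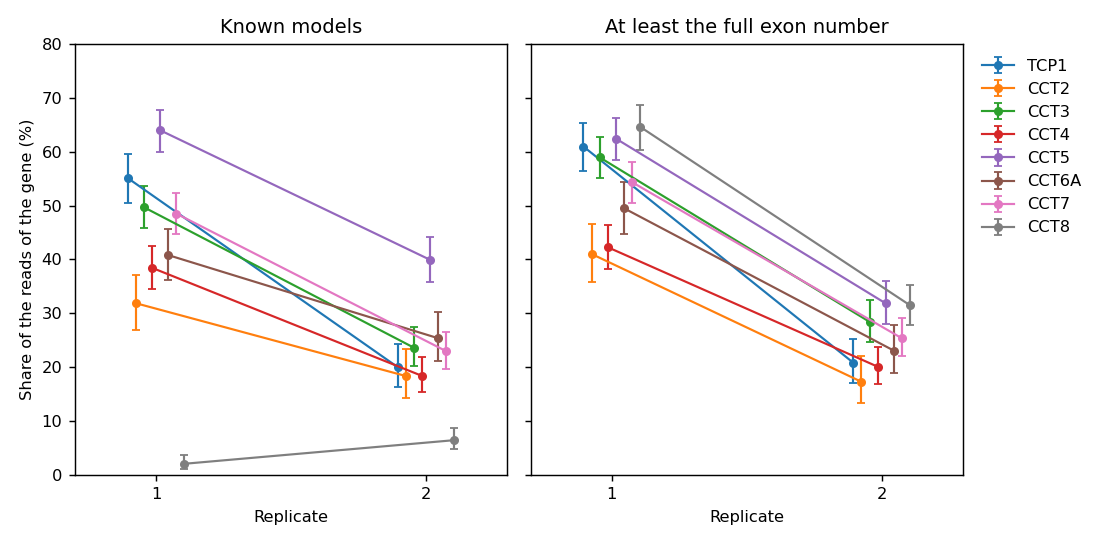
Share of the reads of each CCT gene (vertical axis, percent) in known models (left) and in models with at least the exon number of the reference transcript (right), in both replicates, with 95% Wilson intervals. CCT8 lies apart on the left, at 2.04% and 6.43%, and among the other genes on the right, at 64.6% and 31.5%.

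Incomplete reads of the CCT genes kept the 3′ end. Suffix models held 94.9% (93.7 to 95.9%) of the ISM reads in replicate 1 and 92.1% (91.0 to 93.2%) in replicate 2, against 68.4% and 68.0% over all annotated genes. Genes of like length and exon number were not compared for this share. Only 2.31% and 2.70% lay in prefix models, those with the 5′ end. The suffix models formed a ladder, with reads at almost any number of exons kept. Suffix models with no more than 50% of the exons of the reference transcript held 57.4% (54.9 to 59.9%) and 60.1% (58.0 to 62.1%) of the suffix reads, with overlapping intervals. In TCP1 this part was larger in replicate 2, 49.0% (41.1 to 56.9%) against 63.8% (57.4 to 69.7%), and in CCT4 it was smaller, 84.6% (79.98 to 88.3%) against 74.2% (69.5 to 78.4%). These differences were not tested.

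**Figure D5:**
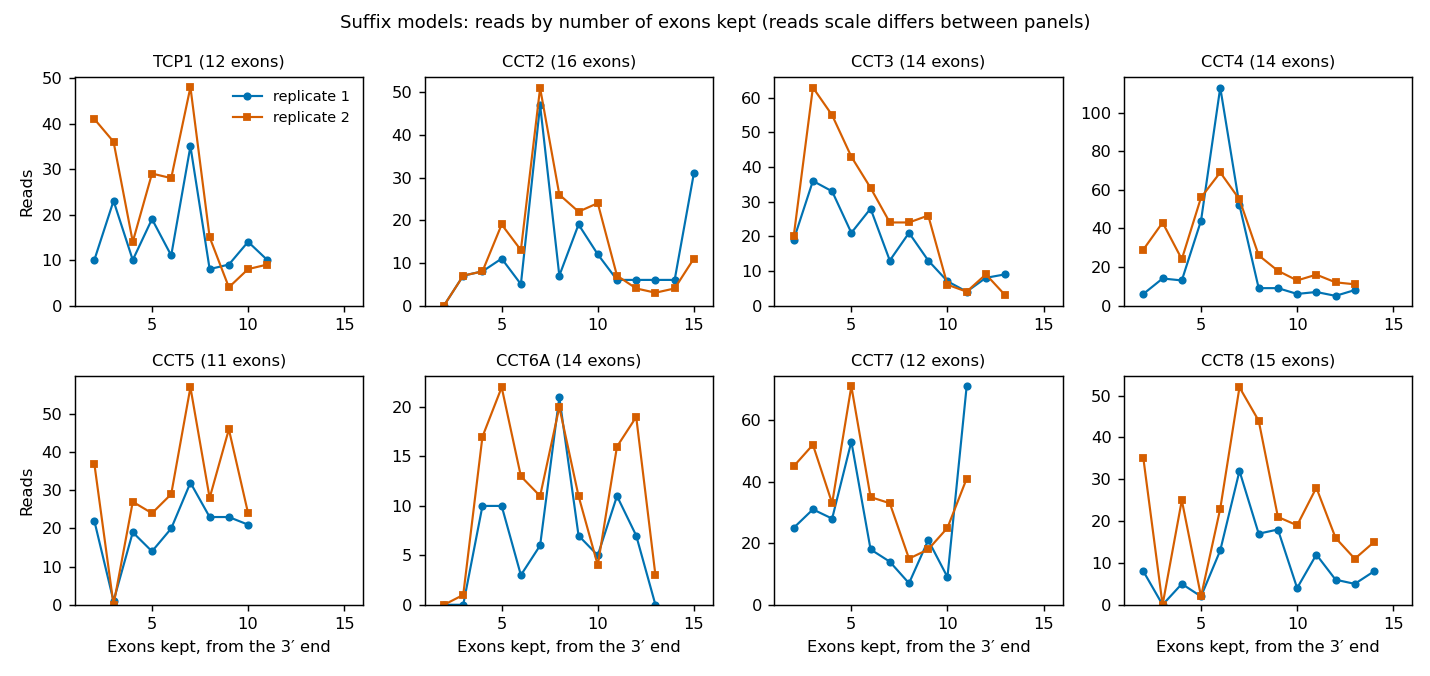
Reads of suffix models (vertical axis) by the number of exons they keep, counted from the 3′ end (horizontal axis), for each CCT gene in replicate 1 (circles) and replicate 2 (squares); the number in each title is that of the reference transcript. CCT4 has its peak at 6 exons in both libraries, CCT2 at 7, and CCT7 and CCT2 have a further peak at 1 exon short of the full number in replicate 1.

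The steps of the ladder were uneven, and the highest step lay at the same exon number in both libraries in 6 of the 8 genes. CCT4 had 113 suffix reads with 6 exons in replicate 1 and 69 in replicate 2, which were 39.5% and 18.5% of its suffix reads and the highest step in both. CCT2 peaked at 7 exons with 47 and 51 reads, TCP1 at 7 exons with 35 and 48, and CCT5 at 7 exons with 32 and 57. CCT3 peaked at 3 exons with 36 and 63 reads, and CCT8 at 7 exons with 32 and 52. In the other 2 genes the highest step differed. CCT7 had it at 11 exons in replicate 1 and at 5 exons in replicate 2, with 71 reads each, and CCT6A at 8 exons with 21 reads and at 5 exons with 22. Suffix reads 1 exon short of the reference transcript were frequent in CCT7, with 71 in replicate 1 and 41 in replicate 2, and in CCT2, with 31 and 11. As coordinates of models are not given, which exon these reads lack was not determined. In these 2 genes that step, like the full transcript, had fewer reads in replicate 2. Steps at which a short annotated transcript has the same junctions were almost empty. CCT5 had 1 and 0 suffix reads with 3 exons, where CCT5-210 matches, and CCT8 had 2 and 2 with 5 exons, where CCT8-210 matches.

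The 5 suffix models with the most reads in the poorer library lay in CCT4, CCT7 and CCT2, and 3 of them began in neighbouring exons of CCT4. The exon in which each begins was found by counting exons back from the 3′ end of the reference transcript. The position within that exon is not given, and whether a strand or only its read ended there was not determined. The sequence of the exon is shown in lower case, followed by the first 30 bases of the next exon in capitals, which all reads of the model run through. All are coding bases from the transcripts of GENCODE release 29 (GRCh38).
CCT4-201 exon 8: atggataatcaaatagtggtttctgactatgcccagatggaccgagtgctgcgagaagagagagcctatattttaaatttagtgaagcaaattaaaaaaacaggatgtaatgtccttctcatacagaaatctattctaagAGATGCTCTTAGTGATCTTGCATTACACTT
CCT4-201 exon 9: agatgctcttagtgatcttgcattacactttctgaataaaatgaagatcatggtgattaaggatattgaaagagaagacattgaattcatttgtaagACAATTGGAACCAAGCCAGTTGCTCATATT
CCT4-201 exon 10: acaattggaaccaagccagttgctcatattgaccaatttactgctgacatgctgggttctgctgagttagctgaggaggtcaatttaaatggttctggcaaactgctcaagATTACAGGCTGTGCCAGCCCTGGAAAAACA
CCT7-201 exon 8: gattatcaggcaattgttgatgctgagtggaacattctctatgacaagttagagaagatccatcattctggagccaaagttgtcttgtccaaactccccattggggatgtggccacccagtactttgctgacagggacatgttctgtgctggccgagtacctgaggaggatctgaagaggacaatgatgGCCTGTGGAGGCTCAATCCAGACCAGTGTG
CCT2-201 exon 10: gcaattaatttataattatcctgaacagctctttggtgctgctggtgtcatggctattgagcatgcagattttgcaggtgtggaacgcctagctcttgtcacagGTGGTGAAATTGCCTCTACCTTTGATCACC

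The model that begins in exon 9 of CCT4-201 (chr2:61873197-61873293, minus strand) is ENCODEHT000336012, with 109 reads (19.9%, 16.7 to 23.4% of the gene) in replicate 1 and 65 (12.3%, 9.78 to 15.4%) in replicate 2. It was the most frequent suffix model of the 8 genes in replicate 1, while ENCODEHT000392115 of CCT7 had more reads (71) in replicate 2. Unlike the others shown, ENCODEHT000336012 had more reads in replicate 1 than in replicate 2. The exon has 97 bases with 30.9% G and C, against 44.7% in the whole transcript, and it starts 1306 bases from the 3′ end. ENCODEHT000335956 begins in exon 8 (chr2:61876095-61876234, 35.7% G and C) and had 49 and 52 reads. ENCODEHT000335957 begins in exon 10 (chr2:61873002-61873112, 44.1% G and C) and had 40 and 52 reads. The base content was given as a description, and its relation to the read starts was not tested. Both annotated CCT4 transcripts with enough exons share these junctions.

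ENCODEHT000392115 begins in exon 8 of CCT7-201 (chr2:73248991-73249179, plus strand), with 52 reads (7.78%) and 71 reads (12.2% of the gene). ENCODEHT000657437 begins in exon 10 of CCT2-201 (chr12:69593510-69593613, plus strand), with 46 reads (14.5%) and 50 reads (18.0%). These exons start 992 bases and 975 bases from the annotated 3′ end. The assignment holds for the transcripts that share the last junctions of the reference, which are 4 of 11 annotated CCT7 transcripts with enough exons and 2 of 5 for CCT2.

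CCT6A differed from the other subunits by 1 frequent model without splice junctions. As coordinates of models are not given, whether its reads came from unspliced RNA was not determined. ENCODEHT000356730, a genomic model of 1 exon and 2171 bases, had 104 reads (25.9%, 21.8 to 30.4% of the gene) in replicate 1 and 97 (28.0%, 23.5 to 32.9%) in replicate 2. Its share was within counting error of equal in both libraries. The mean genomic share of CCT6A was 27.0%, with a median of 8.90% over all 6340 genes, of which 34.4% had a share at least as high, so this level is not rare in the table. It was high among the subunits. TCP1 followed with 4.77% and 12.5%, and the other 6 had at most 5.82%. In CCT7, ENCODEHT000392487 (1 exon, 576 bases) had 8 and 34 reads, and in TCP1, ENCODEHT000666632 (1 exon, 1705 bases) had 14 and 15. Without genomic models, CCT6A was the lowest subunit in place of CCT2, with 7.30% of the summed CCT reads against 7.93%.

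Other new splice forms of the CCT genes had few reads per model. NIC models together held 12.5% and 8.46% of the reads of CCT8, 10.1% and 4.68% in CCT2, and 8.15% and 4.61% in CCT3. In the other subunits they held at most 3.98%, and over all annotated genes 4.13% and 2.90%. Outside CCT8, the most frequent NIC models were ENCODEHT000595433 of CCT3 (14 exons), with 24 and 12 reads, and ENCODEHT000657202 of CCT2 (16 exons), with 20 and 7 reads, both with the exon number of the reference transcript. In CCT8 the leading NIC model, ENCODEHT000228057, had 15 exons and 6 and 8 reads. The third NNC model by this order, ENCODEHT000384399 of CCT7 (12 exons), had 18 and 5 reads. Both libraries held 26 of the 136 NIC models (19.1%, 13.4 to 26.5%) and 25 of the 166 NNC models (15.1%, 10.4 to 21.3%). ISM models recurred in 134 of 340 cases (39.4%, 34.4 to 44.7%) and known models in 19 of 31 (61.3%, 43.8 to 76.3%). Over all annotated genes these shares were 15.5%, 10.95%, 34.4% and 57.8%.

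The partners of CCT were read at lower levels than its subunits, apart from PFDN5. PFDN5 had 375 CPM ± 9.61 (SD, n = 2) and the other 5 prefoldin genes 47.1 to 91.3 CPM in the mean. Of the 6 prefoldin genes 1 passed as lower in replicate 2 and none as higher, where 2.33% and 2.72% of all genes passed: PFDN6 had 103 and 63 reads, a log2 ratio of -0.86 (by exact binomial test, adjusted p 0.00618). Of the phosducin-like cochaperones, PDCL, PDCL3 and TXNDC9 had 19.0 to 34.4 CPM, none passed, and PDCL2 had 0 reads. Tubulin cofactors were led by TBCA with 105 CPM ± 1.85, and none passed. Of the other chaperonin-like genes only MKKS, with 35.9 CPM, had enough reads to test, and it did not pass. CCT6B, the close paralog of CCT6A, had 3 reads in each library, CCT8L2 had none, and BBS10 and BBS12 had at most 3.

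Among the 14 client genes 4 passed as lower and 1 as higher in replicate 2, with a median log2 ratio of -0.06. Of all genes tested 2.33% passed as lower and 2.72% as higher, and of the other genes with at least 500 reads 14.9% and 14.0%. These calls rest on counting error alone, and 21 of all genes passed by edgeR, with the spread estimated from the same 2 libraries. The actin genes ACTB and ACTG1 had 15282 CPM ± 354 and 5455 CPM ± 115 (SD, n = 2). ACTB passed as lower with a log2 ratio of only -0.05, at 21130 and 22713 reads. The tubulin genes did not move together. TUBB4B (log2 ratio -0.51), TUBA1C (-0.42) and TUBA1B (-0.13) passed as lower, TUBA1A passed as higher (0.82, with 225 and 441 reads), and TUBB (-0.07) did not pass. These tubulin genes are close in sequence, so reads could be assigned to a sister gene. The mitochondrial chaperonin genes HSPD1 (log2 ratio -0.40) and HSPE1 (-0.46) both passed as lower, with ratios like those of the CCT subunits. All 14 core proteasome genes had ratios below 0, from -0.01 to -0.49, where 48.9% of all genes tested and 55.8% of the other genes with at least 500 reads lay below 0. Of the 14, 3 passed as lower (21.4%), near the 14.9% of those deeply read genes.

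Several CCT genes have pseudogene copies in the genome, and reads could fall on a copy. Of 13 annotated pseudogenes named after a CCT subunit, 3 were listed. CCT6P1 had 0 reads in replicate 1 and 12 in replicate 2 (by exact binomial test, adjusted p 0.0163). CCT8P1 had 7 and 0 reads and CCT6P3 had 3 and 1, too few to test. Exchange of reads between a copy and its parent gene was not tested. Genes on the opposite strand overlap TCP1 (ACAT2, with 152 and 231 reads), CCT4 (COMMD1, with 129 and 121) and CCT3 (TSACC, with 0 and 1). The small nucleolar RNA genes within TCP1 (SNORA20 and SNORA29) and CCT6A (SNORA15 and SNORA22B) had 0 reads.

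By the shares of known, ISM, NIC, NNC and genomic reads in both libraries, the gene most like the 8 subunits together was PDIA3, which encodes a disulfide isomerase of the endoplasmic reticulum. Its Euclidean distance over these 10 shares was 8.46 percentage points, with 47.2% and 24.8% of its reads in known models. XRCC6, which encodes the DNA end-binding protein Ku70, followed at 9.91, and AHCY, the hydrolase of S-adenosylhomocysteine, at 10.2. The median distance of the 785 other genes with at least 500 reads was 75.1. Of the subunits themselves, CCT7 lay nearest to their sum at 11.1 and CCT8 farthest at 66.1. The shares rest on 2 libraries and on the categories of the models.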

How the data were processed

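The deposited table gives raw counts, whole numbers of reads for each transcript model in each library, which the authors did not normalize. Its name and columns show TALON, and minimap2 and hg38 are named in the submitters' processing notes, without a version or a role. Exon number and length of each model are other values in the same deposited table. The annotation release is not given in the sources used here. All 23533 known models matched GENCODE release 29 in identifier, length and exon number, so positions, exons and sequences were taken from it.

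Counts were added up by gene, all categories included, and scaled to CPM by the library total. For levels, the exact binomial test (two-sided) took the library totals as the expected split, for all genes with at least 10 reads, and log2 ratios used 0.5 added reads. Shares were compared with Fisher's exact test, for all genes with at least 20 reads in each library (20 known reads for known transcripts). P-values were adjusted by Benjamini-Hochberg over all genes tested, with a threshold of 0.05 (Python 3.11.15, scipy 1.17.1). Alternatives used edgeR 4.0.16 and DESeq2 1.42.0. The tests were tested on simulated data with counting error only, without a spread between libraries. Replicate 1 and replicate 2 held 1360368 and 1510998 reads. The reference transcript is the basic protein-coding transcript with the longest coding sequence. Named models are, over the 8 genes, the 5 ISM, 3 NIC, 3 NNC and 3 genomic ones with the highest lower count, and the 3 genes most like the members had at least 500 reads. The members, lists and rules were chosen with earlier results of these data known.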

Additional observations from a re-analysis of the deposited data

How the results depend on the processing

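No paired analysis was possible because the labels hold a single group. Between the libraries taken alone (leaving out either replicate), the highest over the lowest subunit level was 2.11 to 2.13, and the summed level 2485 to 3010 CPM. With known models alone the summed level was 1740 CPM and the range of subunit levels 11.7-fold, from CCT8 (2.61%) to CCT5 (23.6%), with 6.01% for CCT2 and 17.5% for CCT7. Then 7 subunits were lower in replicate 2, CCT2 and CCT4 among them, and 1, CCT8, was higher, with 718 of 5528 genes lower. Without genomic models the range was 2.21-fold, the part of CCT2 7.93%, 4 subunits were lower in place of 5, and 423 of 8758 genes were lower in level. Of 4940 genes 3 were then lower and 1885 higher in ISM share, with a median difference of 13.3 percentage points in place of 6.68 over 6340 genes. With models of at least 2 reads the range was 2.18-fold and the mean NIC share 2.82%. Per kilobase of the known model with most reads the range was 2.93-fold, from CCT6A (7.57%) to CCT8 (22.5%), with 8.01% for CCT2 and 18.0% for CCT7, and per kilobase of the reference transcript, chosen after seeing the data, 2.37-fold. Under TMM scaling, a minimum of 50 reads, or models of at least 2 reads, CCT2 joined the lower subunits, making 6. Over all genes, 295 of 10634, 300 of 6105 and 251 of 9912 were then lower, in this order. Of the choices made after seeing the data, edgeR's exact test left 0 subunits. It left 8 lower and 13 higher genes of 10634 in place of 248 and 289, with the spread estimated from the same 2 libraries. The full exon number, also chosen after seeing the data, left 0 subunits and 1 gene higher and turned CCT8 to -33.1 percentage points. With models of at least 2 exons, 991 of 4226 genes were lower in known share, and 2 were lower and 1521 higher in ISM share. Taken over known, ISM, NIC and NNC reads together, the leading model was lower in 8 subunits, and in 1103 of 4741 genes, with 306 higher. Apart from the number of genes or reads each choice leaves, the cause was not tested. The 7 lower and 1 higher known shares and the 8 higher ISM shares were called under the other filters on reads, exons and genomic models. Gene levels rest on 278 to 668 reads per library, and 2 libraries of 1 group cannot separate biological from technical spread.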
